A study of Mus musculus with 16 samples.

Results

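The insulin-like growth factor (IGF) genes examined here were the ligands Igf1 and Igf2, the receptor Igf1r, and the binding proteins Igfbp2, Igfbp3, Igfbp4, Igfbp5, Igfbp6 and Igfbp7, 9 genes in all. They were found as every probe set whose only gene symbol was one of these names, which gave 26 of the 45101 probe sets on the array. Of these, 24 were bright enough to be tested, and each of the 9 genes kept at least 1. The skin came from iK5-TERT mice (K5tTA-tetop-TERT), in which the keratin 5 promoter drives a tetracycline-controlled activator, and this in turn drives a transgene for TERT, the protein subunit of telomerase, in the basal epidermis and the outer root sheath of follicles. Every mouse carried both transgenes, and all had been kept on doxycycline through development, which holds the transgene silent, and then taken off it, and all were labelled as being in the growth phase of the follicle (anagen) at day 60. The TERT-off mice were injected with doxycycline at 8 µg per g body weight to extinguish the transgene, and the TERT-on mice received PBS, with no drug to extinguish it. Dorsal skin was biopsied at 0, 6, 12 and 24 h, with 1 array per biopsy, 2 arrays in each of the 8 groups and 16 in all. Within a cohort, equal replicate numbers were read as repeated biopsies of a single mouse, so that each cohort was 2 mice. No TERT-on mouse received doxycycline, and loss of TERT and the drug itself cannot be told apart.

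IGF-I and IGF-II are small secreted proteins that act through the IGF-I receptor, a tyrosine kinase that signals through insulin receptor substrates, phosphatidylinositol 3-kinase and AKT. Nearly all IGF outside cells is held by binding proteins, which lengthen its life, keep it from the receptor or release it when proteases cut them. In skin, IGF-I comes largely from fibroblasts and the dermal papilla rather than from keratinocytes, which carry the receptor, and it is known for supporting hair follicle growth. A whole biopsy sums over all of these cells, and fewer cells of a type cannot be told apart from less RNA per cell.

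For 3 of the genes, the 250 bases that end just before the annotated start were printed from RefSeq (GRCm38.p6), because Igfbp3 and Igfbp6 were the members with the largest differences between the cohorts and Igfbp4 stands for the members in which no difference was found. They are given 5′ to 3′ on the strand of the gene, with matches to a TATA box in capitals.
Igfbp3, chr11:7213924-7214173, minus strand: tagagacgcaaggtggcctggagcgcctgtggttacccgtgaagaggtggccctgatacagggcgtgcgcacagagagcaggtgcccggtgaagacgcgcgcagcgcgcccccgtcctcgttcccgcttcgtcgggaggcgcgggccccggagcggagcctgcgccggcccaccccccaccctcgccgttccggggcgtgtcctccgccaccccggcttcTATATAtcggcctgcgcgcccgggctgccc
Igfbp6, chr15:102143936-102144185, plus strand: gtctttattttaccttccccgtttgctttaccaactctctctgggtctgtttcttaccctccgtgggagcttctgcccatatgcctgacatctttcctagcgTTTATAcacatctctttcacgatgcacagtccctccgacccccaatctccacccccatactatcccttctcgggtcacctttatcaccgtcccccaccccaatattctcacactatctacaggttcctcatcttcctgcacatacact
Igfbp4, chr11:99040994-99041243, plus strand: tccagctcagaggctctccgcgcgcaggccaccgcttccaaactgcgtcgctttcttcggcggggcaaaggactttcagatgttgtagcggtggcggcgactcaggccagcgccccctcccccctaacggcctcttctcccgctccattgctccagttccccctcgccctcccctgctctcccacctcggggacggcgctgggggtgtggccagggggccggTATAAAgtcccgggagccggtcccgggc
All 9 genes had a window in that table. Each was searched on both strands for a TATA box (TATAAA or TATATA), a GC box (GGGCGG), an E-box (CACGTG), a TCF/LEF motif (ATCAAAG or AACAAAG) and a FoxO motif (GTAAACA). No match of one motif overlapped a match of another. A TATA box stood in 15.6% of all 32851 windows, a GC box in 32.7%, an E-box in 6.02%, a TCF/LEF motif in 8.06% and a FoxO motif in 3.17%. The Igfbp3 window held TATATA with its first base at -30, and the Igfbp4 window TATAAA at -28. In Igfbp6 the match lay on the opposite strand at -148. No window of the 9 genes held the TCF/LEF or FoxO letters. The Igfbp3 window was 73.2% G and C, that of Igfbp4 69.2% and that of Igfbp6 49.6%, against a median of 52.4% over all windows. The TATA letters stood at nearly the same distance in Igfbp3 and Igfbp4. Apart from the 3 genes printed, no window of the 9 genes held them. Whether these letters bear on the differences between the cohorts was not tested.

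Several features of the arrays bear on the values. Tert itself read 8.32 to 16.1 intensity units in TERT-off skin over 6 to 24 h, against 22.6 to 64.6 in TERT-on skin, and 185 to 357 in the 4 arrays at 0 h, so it was also lower after PBS than before injection. The difference over 6 to 24 h was -1.76 on the log2 scale (SE 0.26, adjusted p = 0.00278). Keratin 5 (Krt5), which marks the cells in which the transgene is driven, was present throughout (2435 to 4355 in TERT-off and 3678 to 5113 in TERT-on skin over 6 to 24 h). The summed intensity of 9 hair matrix and shaft genes was already low at 0 h in TERT-off replicate 1, at 527. TERT-off replicate 2 stood at 17996 and the TERT-on mice at 13527 and 6334. The summed intensity of 8 inner root sheath genes at 0 h was likewise 1797 in that mouse, 25973 in the other TERT-off mouse, and 24458 and 19529 in the TERT-on mice. Both low values go against the anagen label of TERT-off replicate 1. For TERT-on replicate 1, the 0 h array had a Gapdh 5′ to 3′ signal ratio of 0.0599, against 0.977 to 1.12 on the other 15.

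Over 6 to 24 h, 4 of the 9 genes were higher in TERT-off skin and none was lower: both ligands, Igf1 and Igf2, and the binding proteins Igfbp3 and Igfbp6. Igfbp3 stood at 4.06 times its TERT-on level, Igfbp6 at 2.81 times, Igf2 at 1.98 times and Igf1 at 1.90 times. The receptor Igf1r and the binding proteins Igfbp2, Igfbp4, Igfbp5 and Igfbp7 did not pass the test. This comparison set the mean of TERT-off at 6, 12 and 24 h against that of TERT-on in a limma model of all 16 arrays, with Benjamini-Hochberg adjustment over 25563 probe sets and a gene called when its adjusted p was under 0.05. The background was high: 29.5% of the 12580 genes tested were called, 16.9% of those tested were called higher and 12.6% lower, and 25.9% of all probe sets were called. The members' median log2 difference was 0.58, against 0.04 over all genes tested. At the level of probe sets, 8 of the 24 tested were called, namely every tested probe set of Igf1, Igf2, Igfbp3 and Igfbp6 and none of the other 5 genes. All 4 calls were kept without TERT-off replicate 1, whose follicles stood apart, and without the TERT-on array of low Gapdh ratio. With either TERT-on mouse left out, which left 1 TERT-on array per time, most or all of the 4 calls were lost. So were most calls over the whole array, so this loss was not particular to these genes. The log2 differences without TERT-on replicate 1 were 2.22 for Igfbp3, 1.480 for Igfbp6, 1.06 for Igf2 and 0.98 for Igf1. Without TERT-on replicate 2 they were 1.82, 1.504, 0.91 and 0.87 in the same order. With 2 mice against 2, an exact two-sided permutation test could not go below p = 0.333, so each adjusted p rests on the spread shared across arrays and genes.

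**Figure D1:**
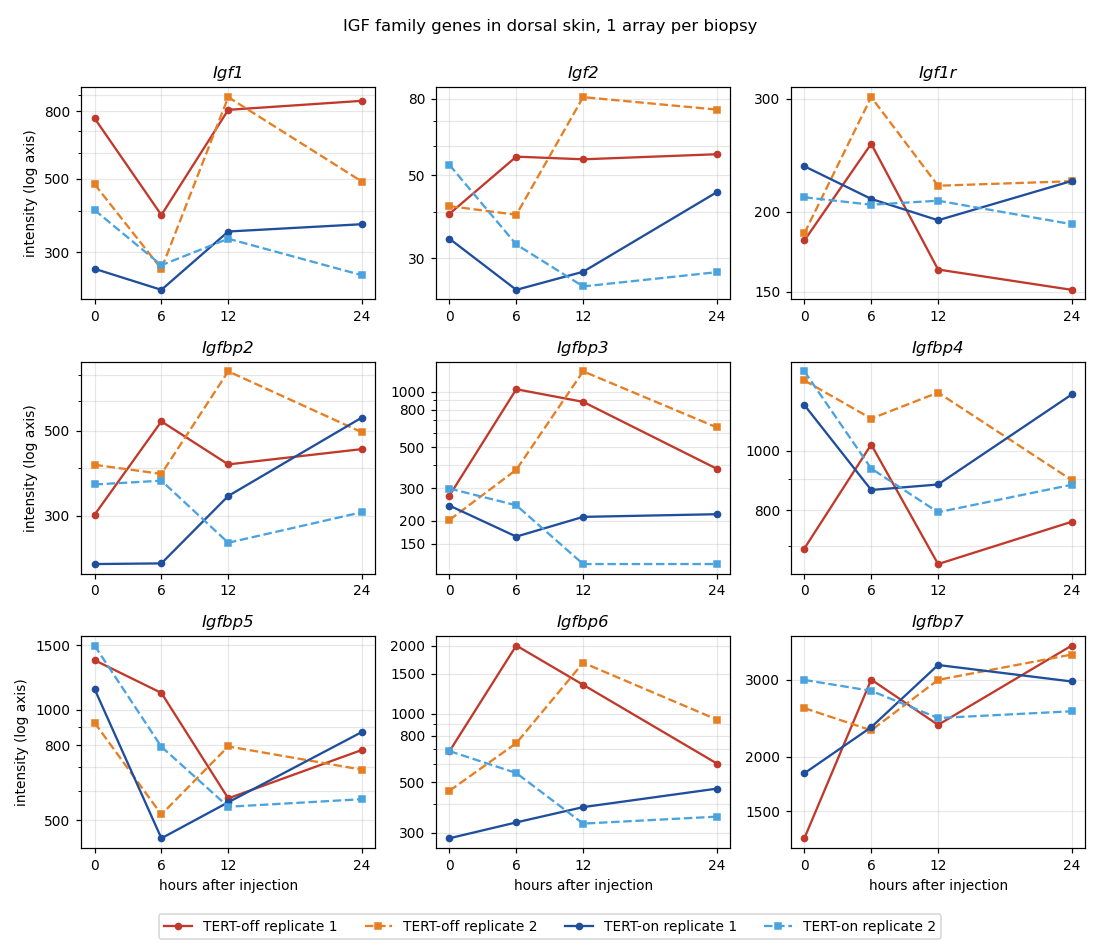
Intensity (log axis) of the probe set that stands for each of the 9 genes, against time after injection in h; each line joins the arrays of a mouse (TERT-off in red and orange, TERT-on in blue). From 6 h on, the TERT-off lines of Igfbp3 and Igfbp6 lie wholly above the TERT-on lines, those of Igf1 and Igf2 mostly so, and those of Igf1r, Igfbp4, Igfbp5 and Igfbp7 cross them.

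Igfbp3, the chief carrier of IGF in serum and also a secreted growth inhibitor, showed the largest difference of the family. TERT-off replicate 1 read 274, 1034, 883 and 383 intensity units at 0, 6, 12 and 24 h, and TERT-off replicate 2 read 202, 378, 1292 and 641. TERT-on replicate 1 read 242, 164, 210 and 217 at the same times, and TERT-on replicate 2 read 299, 243, 116 and 116. The cohorts overlapped at 0 h, and afterwards the lowest TERT-off array (378) was above the highest TERT-on array (243). By the probe set that stands for each gene, such a complete separation of the 6 TERT-off from the 6 TERT-on arrays was seen for 2 members. These were Igfbp3 and Igfbp6, and the share over all genes was 6.61%. The difference over 6 to 24 h was 2.02 on the log2 scale (SE 0.31, 95% interval 1.35 to 2.69, limma adjusted p = 0.00283). The second probe set of the gene read 269 to 1162 in TERT-off and 70.0 to 192 in TERT-on skin over those hours, a log2 difference of 2.05 (SE 0.38, adjusted p = 0.00534). Both probe sets thus gave the same size of difference.

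Igfbp3 was also the one member called at a single time. At 12 h its log2 difference was 2.77 (SE 0.49, adjusted p = 0.0284), and that of its second probe set was 2.82 (adjusted p = 0.0449). Of all genes, 1.74% were called at 6 h, 2.56% at 12 h and 2.41% at 24 h. No member was called at 6 or 24 h, where limma gave 3 of the 9 an unadjusted p under 0.05 each time (Igf2, Igfbp3 and Igfbp6 at 6 h, and Igf1, Igf2 and Igfbp3 at 24 h). Of all 12580 genes, 2962 had such a p at 6 h and 2861 at 24 h. Without TERT-on replicate 1 the 12 h log2 difference of Igfbp3 was 3.20, and without TERT-on replicate 2 it was 2.35. These fits had 1 TERT-on array per time, and in both the Igfbp3 call was lost, as were nearly all 12 h calls over the whole array. The 12 h call was also lost with no filter on dim probe sets (log2 difference 2.77, limma adjusted p = 0.0929). At 6 h the log2 difference was 1.65 (adjusted p = 0.101) and at 24 h 1.64 (adjusted p = 0.102). In TERT-off replicate 1 the highest value came at 6 h, and in TERT-off replicate 2 at 12 h.

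Igfbp6, a binding protein that prefers IGF-II over IGF-I, followed Igfbp3 closely. Its readings were 684, 1999, 1343 and 605 in TERT-off replicate 1 and 459, 744, 1680 and 944 in TERT-off replicate 2. In TERT-on replicate 1 they were 284, 333, 389 and 469, and in TERT-on replicate 2 they were 686, 549, 329 and 353. The cohorts overlapped at 0 h and were fully apart afterwards, the lowest TERT-off value being 605 and the highest TERT-on value 549. The 0 h log2 difference was 0.35. It was -0.29 without the array of low Gapdh ratio (284), a setting added after seeing the data. The log2 difference over 6 to 24 h was 1.49 (SE 0.31, 95% interval 0.83 to 2.16, adjusted p = 0.00742), with 1.51 at 6 h (adjusted p = 0.121), 2.07 at 12 h (adjusted p = 0.0519) and 0.89 at 24 h (adjusted p = 0.351). As with Igfbp3, the peak was at 6 h in the first TERT-off mouse and at 12 h in the second. Over the 16 arrays, which share 4 mice, the log2 intensities of Igfbp3 and Igfbp6 had a Pearson r of 0.94, the highest of any pair of members, given as a description.

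Igf1, the ligand that growth hormone induces in liver and that connective tissue makes locally, was higher in TERT-off skin, but it was so before the injection as well. TERT-off replicate 1 read 763, 388, 809 and 862 at 0, 6, 12 and 24 h, and TERT-off replicate 2 read 482, 267, 884 and 490. TERT-on replicate 1 read 267, 230, 346 and 364, and TERT-on replicate 2 read 402, 274, 329 and 255. Both TERT-off arrays were above both TERT-on arrays at 0 h, and at 6 h the value in TERT-off replicate 2 fell inside the TERT-on range. Over 6 to 24 h the log2 difference was 0.93 (SE 0.19, 95% interval 0.50 to 1.35, adjusted p = 0.00793), and at 0 h it was 0.89 (SE 0.31, 95% interval 0.20 to 1.57), which did not pass after adjustment (limma adjusted p = 0.557). The change from 0 h was -0.11 in TERT-off and -0.15 in TERT-on mice, and these changes differed by 0.04 (95% interval -0.72 to 0.80, adjusted p = 0.967). The 0 h array of TERT-on replicate 1 (267) is the one of low Gapdh ratio. Without it, a setting added after seeing the data, the 0 h difference was 0.58 (SE 0.36, adjusted p = 0.849) and the changes differed by 0.34 (adjusted p = 0.708). All 4 probe sets of Igf1 were called over 6 to 24 h, with log2 differences of 0.92 to 1.25 and limma adjusted p-values of 0.00604 to 0.00793. All 4 had TERT-off above TERT-on at 0 h, by 0.76 to 1.02. In the dimmest of them the cohorts did not overlap over 6 to 24 h (82.0 to 232 in TERT-off, 54.0 to 76.6 in TERT-on skin).

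Igf2, the fetal growth ligand whose expression is imprinted, was dim in this adult skin, and the cohorts overlapped at 0 h. TERT-off replicate 1 read 39.5, 56.1, 55.2 and 56.9, and TERT-off replicate 2 read 41.4, 39.2, 80.8 and 74.9. TERT-on replicate 1 read 33.9, 24.7, 27.7 and 45.1, and TERT-on replicate 2 read 53.3, 32.7, 25.3 and 27.6. The TERT-off values at 0 h lay between those of the TERT-on mice, of which the lower (33.9) is from the array of low Gapdh ratio. Without that array, a setting added after seeing the data, the 0 h difference was -0.41. After 0 h a single TERT-off array (39.2, replicate 2 at 6 h) fell below a single TERT-on array (45.1, replicate 1 at 24 h). The log2 difference was 0.98 over 6 to 24 h (SE 0.20, 95% interval 0.54 to 1.43, adjusted p = 0.00769), 1.34 at 12 h (adjusted p = 0.0533) and -0.07 at 0 h (adjusted p = 0.960). Its other probe set read 4.32 to 9.63 on all 16 arrays and was too dim to test, so the Igf2 result rests on 1 probe set.

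**Figure D2:**
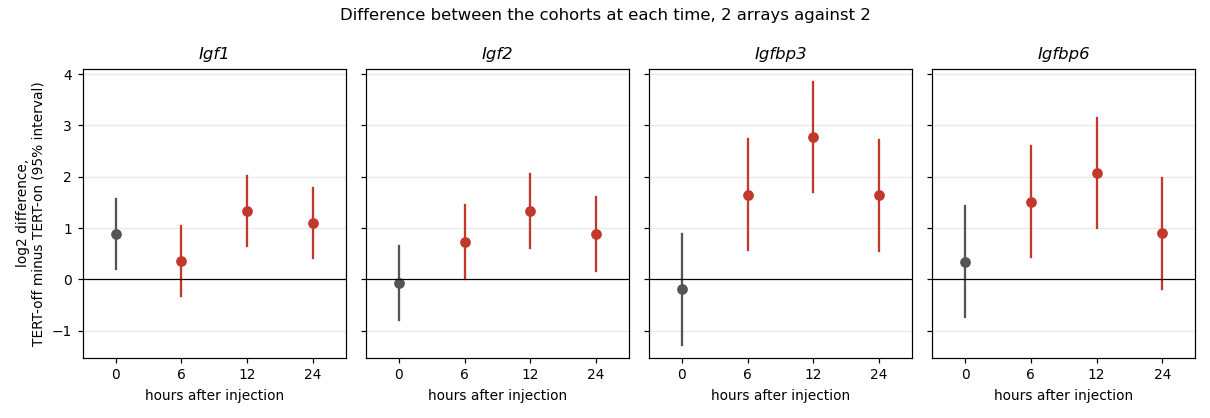
Log2 difference, TERT-off minus TERT-on, with its 95% interval at 0 h (grey) and at 6, 12 and 24 h (red), 2 arrays against 2 at each time, for the 4 genes called over 6 to 24 h. Igf2, Igfbp3 and Igfbp6 have intervals that include 0 before injection, and Igf1 starts at 0.89. In all 4, each shown by the probe set that stands for the gene, the highest estimate is at 12 h. The other probe sets of Igf1 were highest at 24 h, at 1.25, 1.51 and 1.36.

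How the members moved within each mouse was compared next. Set against its own 0 h array, the mean of later arrays for Igfbp3 changed in TERT-off mice by 1.36 and 1.75 (log2) and in TERT-on mice by -0.31 and -1.01. Igfbp6 changed by 0.78 and 1.20 in TERT-off and by 0.47 and -0.78 in TERT-on mice, and Igf2 by 0.51 and 0.58 in TERT-off and by -0.11 and -0.91 in TERT-on mice. The difference between these changes was 2.21 for Igfbp3 (SE 0.55, limma adjusted p = 0.294), 1.15 for Igfbp6 (SE 0.55, adjusted p = 0.390) and 1.06 for Igf2 (SE 0.37, adjusted p = 0.319). None passed after adjustment, and this comparison called 1 gene in all, 0.00795% of those tested; at an unadjusted p under 0.05 it held 2 of the 9 members (Igf2 and Igfbp3) and 1806 of the 12580 genes. No member was called at 0 h (0.0397% of genes called), for the change from 0 h within TERT-off (0.501%) or within TERT-on skin (0.183%), or for the 24 h effect minus the 6 h effect (0.207%). At an unadjusted limma p under 0.05, 1 member stood in the 0 h comparison (Igf1), 3 in the TERT-off change (Igfbp3, Igfbp6 and Igfbp7), 1 in the TERT-on change (Igfbp5) and 1 in the last (Igf1r). Over all 12580 genes these counts were 999 at 0 h, 2245 for the TERT-off change, 2477 for the TERT-on change and 1304 for the last. For the brighter Igfbp5 probe set the log2 change was -0.64 (adjusted p = 0.299) in TERT-off and -1.09 (SE 0.29, adjusted p = 0.0901) in TERT-on skin, and for the dimmer one it was -0.14 (adjusted p = 0.815) in TERT-off and -0.03 (adjusted p = 0.961) in TERT-on skin. Without the 0 h array of low Gapdh ratio, the changes differed by 2.41 for Igfbp3 (adjusted p = 0.426), 1.78 for Igfbp6 (adjusted p = 0.426) and 1.40 for Igf2 (adjusted p = 0.426).

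The receptor gene Igf1r had 5 tested probe sets and none was called, with log2 differences of -0.20 to 0.37 over 6 to 24 h. The one that stood for the gene read 151 to 302 in TERT-off skin, with a median of 221, and 191 to 223 in TERT-on skin, with a median of 207. Its difference was 0.05 (95% interval -0.21 to 0.32, adjusted p = 0.775), which in folds runs from 0.862 to 1.25. The TERT-off values spanned a wider range than the TERT-on values and enclosed them. Both TERT-off mice had their highest reading, 255 and 302, at 6 h, when the TERT-on readings were 209 and 205.

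Igfbp2, a binding protein abundant in fetal tissue, was intermediate. It read 386 to 716 in TERT-off skin over 6 to 24 h, with a median of 472, and 225 to 542 in TERT-on skin, with a median of 322. The cohorts overlapped through the TERT-on array of replicate 1 at 24 h (542). The log2 difference of 0.58 (SE 0.23, 95% interval 0.07 to 1.09) had a limma adjusted p of 0.0875, which missed the threshold. In the genome Igfbp2 and Igfbp5 are next to each other, as are Igfbp3 and Igfbp1, and no family gene next to a called member was itself called: Igfbp1 was too dim to test, and Ins2, next to Igf2, had a log2 difference of -0.05 (adjusted p = 0.783).

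Igfbp4, a soluble inhibitor of IGF action, had 6 tested probe sets, and none was called. The probe set that stood for the gene read 655 to 1242 in TERT-off skin, with a median of 959, and 794 to 1233 in TERT-on skin, with a median of 881. Its log2 difference was 0.01 (95% interval -0.39 to 0.41, adjusted p = 0.970), and over all 6 the differences ran from -0.22 to 0.04. Folds outside 0.763 to 1.33 were thus outside the interval. In every probe set of Igfbp4, TERT-off replicate 2 had a higher mean over 6 to 24 h than TERT-off replicate 1, with 1078 against 801 in the one that stood for the gene.

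Igfbp5, a matrix-bound binding protein, read 519 to 1111 in TERT-off skin over 6 to 24 h, with a median of 732, and 447 to 870 in TERT-on skin, with a median of 566. The log2 difference was 0.23 (95% interval -0.27 to 0.74, adjusted p = 0.486), and its dimmer probe set gave 0.19 (adjusted p = 0.517). In the brighter probe set all 4 mice read lower at each later time than at 0 h. In the dimmer one TERT-off replicate 2 read 45.3 at 0 h and 55.4 and 62.5 at 12 and 24 h, and TERT-on replicate 1 read 32.9 at 0 h and 43.7, 42.2 and 43.1 afterwards. Igfbp7, which binds IGF weakly and is found around vessels, read 2298 to 3589 in TERT-off skin, with a median of 2998, and 2336 to 3240 in TERT-on skin, with a median of 2684. Its log2 difference was 0.10 (95% interval -0.32 to 0.52, adjusted p = 0.729), and a dimmer probe set gave 0.01 (adjusted p = 0.961). The remaining Igfbp7 probe set, at 18.6 to 33.8, was too dim to test. The array of low Gapdh ratio gave the lowest of all 16 readings for the dimmer Igfbp5 probe set (32.9) and for the dimmest of Igfbp4 (27.0). It enters no mean over 6 to 24 h, but it is part of the fit that gave the SEs and p-values for those hours.

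**Figure D3:**
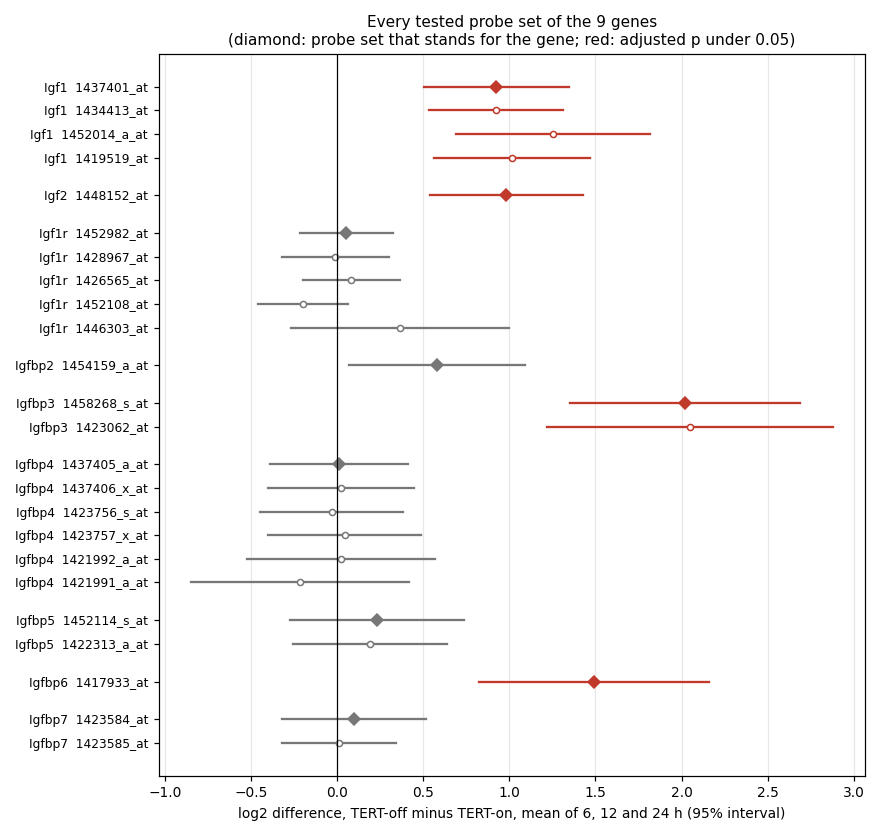
Log2 difference over 6 to 24 h, TERT-off minus TERT-on, with its 95% interval for each of the 24 tested probe sets of the 9 genes; diamonds stand for the gene and red marks an adjusted p under 0.05. All 8 red probe sets lie right of 0 and belong to Igf1, Igf2, Igfbp3 and Igfbp6, and the intervals of the other 16 belong to genes of which none was called.

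The wider pathway was read from lists around the 9 genes, and named genes are those called with the largest differences. Among other receptors and family genes, 1 of 4 tested was higher in TERT-off skin and 1 lower: the insulin receptor gene Insr at 0.76 on the log2 scale (160 to 252 in TERT-off, 95.4 to 123 in TERT-on, adjusted p = 0.00285) and Igf2r, whose product clears IGF-II, at -0.39 (193 to 280 in TERT-off, 274 to 323 in TERT-on, adjusted p = 0.0328). Unlike Igf1r, Insr was fully apart between the cohorts, while Igf2r was apart except at the edge of its ranges. At 0 h Insr differed by -0.12 and Igf2r by -0.23. In the growth hormone axis, which drives Igf1 transcription in liver, 5 of 6 genes were higher and none lower: the feedback inhibitor Socs2 by 1.00, the transcription factors Stat5b by 0.75 and Stat5a by 0.53, the growth hormone receptor Ghr by 0.68, and the kinase Jak2 by 0.49. The sixth, the feedback inhibitor Cish, differed by -0.03 (adjusted p = 0.889). Ghr read 699 to 1310 in TERT-off and 588 to 690 in TERT-on skin, with no overlap (adjusted p = 0.00214), and its 0 h difference was -0.01. Socs2 was already higher in TERT-off skin at 0 h, by 0.70, and Jak2 by 0.25. The 0 h difference was -0.16 for Stat5b and -0.01 for Stat5a.

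Of the proteases that cut the binding proteins and their inhibitors, 2 of 6 were higher and none lower, the serine protease Htra1 by 0.58 (adjusted p = 0.0479) and the IGFBP5 protease Pappa2 by 0.36 (adjusted p = 0.0379). At 0 h Htra1 differed by -0.06 and Pappa2 by 0.20. Of the CCN and other proteins with an IGFBP-like domain, 3 of 6 were higher and none lower: Ccn5 by 1.53 (adjusted p = 0.00919), Ccn3 by 1.04 and Ccn1 by 0.85, all of them secreted matrix proteins. Before injection Ccn5 was already higher by 0.74, Ccn3 by 0.19 and Ccn1 by 0.15. The single IGF mRNA-binding gene that could be tested, Igf2bp3, differed by 0.37 (adjusted p = 0.103). Counts of this kind should be read against the 16.9% of all genes that were called higher and the 12.6% called lower.

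Downstream of the receptor the list was mixed, with 4 of 28 genes higher, 3 lower and a median difference of 0.06, close to the 0.04 of all genes. Those with the largest differences were Pik3r3, a regulatory subunit of phosphatidylinositol 3-kinase, at -1.35 (adjusted p = 0.0134), the receptor-binding adaptor Grb10 at 1.24 (adjusted p = 0.00383), its relative Grb14 at -0.68 (adjusted p = 0.0279) and another regulatory subunit, Pik3r1, at 0.64 (adjusted p = 0.0157). Grb10 read 313 to 674 in TERT-off and 160 to 284 in TERT-on skin. Before injection Grb14 already differed by -0.64, while Pik3r1 differed by -0.24, Grb10 by 0.13 and Pik3r3 by -0.12. Among 12 genes known as targets of the FoxO factors that AKT restrains, 3 were higher and 2 lower: Pik3ip1 by 1.09, Txnip by 0.91 and Sesn1 by 0.57 on the higher side, and Sesn3 at -0.76 and Cdkn1b at -0.47 on the lower. At 0 h Cdkn1b differed by -0.77, further from 0 than later. The 0 h differences of Txnip, Pik3ip1, Sesn1 and Sesn3 were -0.44, -0.31, -0.30 and -0.12. No pathway gene named above passed after adjustment at 0 h. Neither list moved in one direction.

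Markers of other cells moved between the same arrays. All 6 macrophage genes were higher in TERT-off skin over 6 to 24 h, among them Cd163 by 1.71 and Mrc1 by 1.44, and their summed intensity was 2994 to 7272 in TERT-off and 1787 to 3244 in TERT-on skin. The sum was highest in TERT-off replicate 1 at 6 and 12 h (7034 and 7153) and in TERT-off replicate 2 at 12 and 24 h (7272 and 5725), and these 4 arrays were also the 4 highest for Igfbp3 and the 4 highest for Igfbp6. Its part in the Igfbp3 and Igfbp6 results was not tested. Before injection it was 3945 and 2131 in TERT-off and 1472 and 2251 in TERT-on skin. Of 6 dermal fibroblast genes, 5 were higher, among them Pdgfra by 1.44 and Lum by 1.09. Their sums were 19901 to 30387 in TERT-off and 12851 to 20950 in TERT-on skin. The same 4 arrays had the 4 highest fibroblast sums. These were 30387 and 25570 in TERT-off replicate 1 at 6 and 12 h, and 26948 and 25758 in TERT-off replicate 2 at 12 and 24 h. The part of fibroblasts, which make Igf1 and several binding proteins, was not tested either.

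Other markers were less uniform. Of 4 neutrophil genes 3 were higher, and the other, Ngp, differed by -0.09 (limma adjusted p = 0.604). Their sums were 1143 to 9074 in TERT-off and 452 to 1037 in TERT-on skin. At 0 h these sums were already 993 and 756 in TERT-off, against 313 and 132 in TERT-on skin. S100a9 stood 2.71 higher (log2) in TERT-off skin at 0 h, without passing, and 3.27 higher over 6 to 24 h. Of 6 adipocyte genes 3 were higher, with sums of 10009 to 13533 and 7991 to 9725, although the fat layer had been cut away. Endothelial genes were higher for 5 of 7 (633 to 1077 in TERT-off, 535 to 748 in TERT-on) and skeletal muscle genes for 4 of 7 (16080 to 29296 in TERT-off, 13726 to 23834 in TERT-on). Pericyte and smooth muscle genes were higher for 1 and lower for 3 of 6. Hair matrix and shaft genes were lower for 8 of 9, with sums of 359 to 15180 in TERT-off and 5697 to 19935 in TERT-on skin, inner root sheath genes for 7 of 8 (1351 to 22486 and 21611 to 32557) and melanocyte genes for all 5 (566 to 5377 and 2370 to 7159). Dermal papilla genes, from the cells that signal to the matrix, were higher for 1 and lower for 1 of 8. The higher one was Prom1 at 0.63 (limma adjusted p = 0.0415) and the lower one Corin at -2.48 (adjusted p = 0.00927). Genes of the basal keratinocytes, in which the transgene is driven, were higher for 1 of 7, Col17a1 by 0.56, and lower for none. Their part in the IGF values was not tested.

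**Figure D4:**
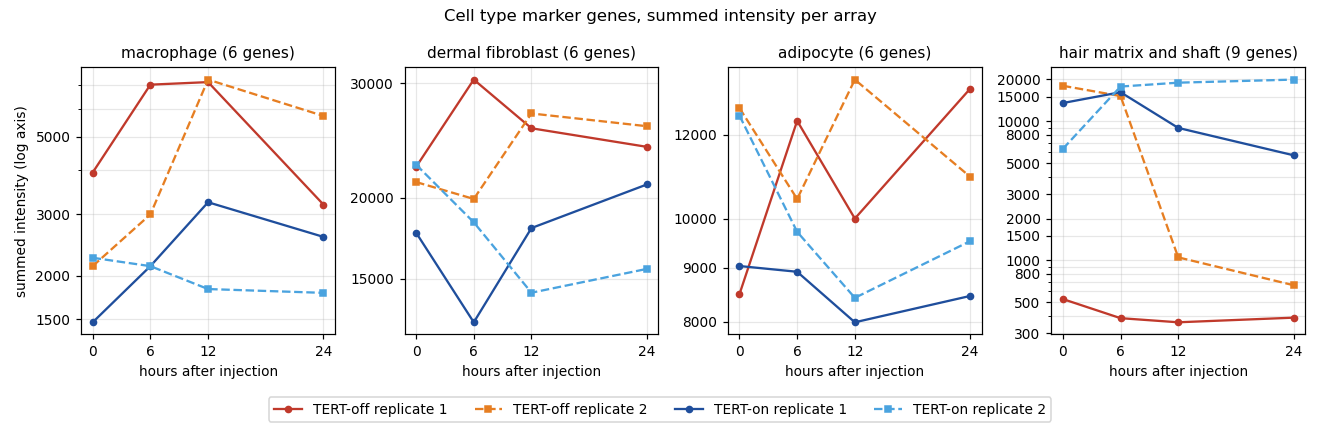
Summed intensity (log axis) of the macrophage, dermal fibroblast, adipocyte and hair matrix marker genes on each array, against time after injection in h, each line joining the arrays of a mouse. At 12 h the macrophage sum reaches 7153 and 7272 in TERT-off skin, and the hair matrix sum of TERT-off replicate 1 is already at 527 at 0 h.

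The genes whose log2 intensity over the 16 arrays was most like that of each called member were listed as a description, since the 16 arrays share 4 mice and the cohort difference itself. For Igfbp3 they were Ifngr1 (Pearson r 0.96), Ptprj (0.96) and Tgfbr2 (0.95), and for Igfbp6 Pcolce2 (0.95), Samhd1 (0.95) and Med6 (0.94). For Igf2 they were Twsg1 (0.96), Zcchc24 (0.96) and Fbln5 (0.95), and for Igf1 Rgs19 (0.92), Pla2g15 (0.91) and Cox19 (0.91). Among the members, Igf2 and Igfbp3 had r 0.86, Igf2 and Igfbp2 0.83, and Igf1 and Igf2 0.72, whereas Igf1r and Igf1 had -0.55.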

How the data were processed

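Per the labels and the study's methods, total RNA of dorsal skin was amplified, labelled and hybridised to Affymetrix whole-genome mouse arrays. The deposited values were intensity per probe set on a linear scale, which the authors had brought to a common scale with dChip, using probes of invariant rank, and modelled from perfect-match minus mismatch differences. The model can leave dim probe sets unreliable. A single symbol was given for 34958 of 45101 probe sets, several for 932, and no symbol for 9211. The 20th percentile of all values (7.71) was used as a floor before log2 transformation. Kept were probe sets above the table median (34.4) on at least 2 arrays, with a value in every group (25563, for 12580 genes). The probe set with the highest mean stood for its gene.

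One limma fit (3.58.1, R 4.3.3, statmod 1.5.0) held 8 group means, with mouse as random block (estimated correlation 0.0728) and an intensity trend. Tests were two-sided, adjusted by Benjamini-Hochberg over all probe sets. Named genes were the 9 members and, of each pathway list, up to 4 called genes with the largest difference; Jak2, the fifth of its list, and members given for not passing were added after their values were seen, as were the markers named, at most 2 a list. The members and lists were chosen with earlier results of these data known. Promoter windows came from RefSeq. The number of arrays limits the precision. SAM, which the study used, was not rerun. Figures were drawn with matplotlib.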

Additional observations from a re-analysis of the deposited data

Results flagged for a closer look

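For 3 members both TERT-off mice moved one way from 0 h and both TERT-on mice the other, in the mean of the later arrays: the changes differed by 2.21 on the log2 scale for Igfbp3 (limma adjusted p = 0.294), by 1.06 for Igf2 (adjusted p = 0.319) and by 0.34 for Igf1r (adjusted p = 0.502). The test of the difference passed for none of them, and the 5 other Igfbp genes and Igf1 did not show opposite directions in all 4 mice. The 0 h array of TERT-on replicate 1, from which its changes were taken, is the one of low Gapdh ratio. In that mouse Igf2 changed by -0.11 and Igfbp6 by 0.47, so which members met this rule depends on a doubtful array. The Igf1r value comes from 1 of its 5 tested probe sets, in which TERT-off replicate 1 changed by only 0.03 (log2). In the others the changes differed by 0.39, 0.35, -0.40 and -0.21, and in none of these did all 4 mice show opposite directions.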

How the results depend on the processing

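Over 6 to 24 h the count of called members was 4, and it was 3 to 5 under the alternatives that kept all mice. With 1 TERT-on mouse left out most or all of the 4 calls were lost, and far fewer probe sets were called over the whole array. These fits had 1 TERT-on array per time, assumed to vary like the other groups. Differences of the called genes kept their direction throughout: 1.82 to 2.22 for Igfbp3, 1.41 to 1.57 for Igfbp6, 0.72 to 1.21 for Igf1 and 0.71 to 1.11 for Igf2, which could not be tested when every array had to pass the filter. Igfbp2 passed in 2 of 17 alternatives. At 12 h the count was 1, against 3 with log2(intensity + 16), 3 of 8 when every array had to pass the filter and 0 with no filter, and 0 to 1 with 1 mouse left out. At 6 h it was 0 with all mice kept. Without TERT-off replicate 2, which left 1 TERT-off array per time, Igfbp3 and Igfbp6 were called at 6 h. In that fit far more probe sets were called at 6 h over the whole array. At 24 h the count was 0 with all mice kept, and Igf1 was called without TERT-off replicate 2. The cause was not tested.

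Igf1r and Igfbp4, near 0 and never called, changed sign. Igf1r, at 0.05, was -0.00516 with arrays centred on their medians, -0.15 to 0.26 with 1 mouse left out (the lowest without TERT-off replicate 2) and -0.13 over 12 and 24 h only. Igfbp4, at 0.01, was -0.0477 with centred arrays, -0.20 to 0.23 with 1 mouse left out (-0.20 without TERT-off replicate 2, -0.08 without TERT-on replicate 2), -0.11 over 12 and 24 h only and -0.0245 as the mean of all its probe sets.

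Arrays with the same replicate number in the 2 cohorts deviated from their group means with correlations of -0.12 to 0.11. Between times, arrays of replicate 1 had correlations of 0.14 to 0.65 in TERT-off and -0.15 to 0.33 in TERT-on skin. As arrays read as a single mouse could also be near 0, these values cannot show whether the number stands for something shared across the cohorts. With the replicate block across cohorts 5 members were called over 6 to 24 h and 4 at 12 h. Over all probe sets that fit called 9134 over 6 to 24 h, against 6625 in the main fit, and 1663 at 12 h, against 528.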
